A study of Mus musculus with 16 samples.

Results

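Among 16 RNA sequencing libraries of mouse retinal pigment epithelium (RPE), the 5 libraries with the highest level of Krt12, a keratin of the corneal epithelium, were compared with the 5 libraries with the lowest level, so that 10 of the 16 libraries were members and 6 lay between them. The sets were drawn on Krt12 itself, in CPM (a gene's count divided by the total count of its library and multiplied by 1e+06). Every gene of these libraries counts as used by that choice, so the comparison of the sets is a description and carries no test. The Krt12-high libraries were replicates 2 and 1 of hydroquinone-treated wild type, replicate 1 of untreated wild type, replicate 1 of hydroquinone-treated knockout and replicate 2 of untreated knockout, in falling order of Krt12. The Krt12-low libraries were replicates 3 and 2 of untreated wild type, replicate 3 of hydroquinone-treated wild type, and replicates 4 and 3 of hydroquinone-treated knockout, in the same falling order. Values of the sets are given in these orders throughout.

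The mice were males of the C57BL/6 background, 40 weeks old, either wild type or knocked out for Sucnr1, which encodes the succinate receptor. Each genotype was left untreated or given hydroquinone, an oxidant, at a dose and for a time not given in the sources used here. There were 4 libraries for each of the 4 combinations of genotype and treatment, and each library was 1 eye. Cornea, iris and lens had been cut away and the retina peeled off, and RPE was then picked from the choroid with forceps, so the tissue was not sorted by cell. The sample titles name 13 mice, 3 of them with both eyes, while the protocol gives 4 animals per group. The p-values for library-level tests therefore measure the spread between eyes, some of which share a mouse.

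The corneal epithelium is a stratified, non-keratinised epithelium at the front of the eye. It expresses the keratins Krt12 and Krt5, holds large amounts of the aldehyde dehydrogenase Aldh3a1 and the water channel Aqp5, and is tied together by desmosomes and anchored to its basement membrane by hemidesmosomes. It meets the conjunctiva, which has mucus-secreting cells and other keratins, at the limbus, where its stem cells lie. The RPE is a single pigmented layer at the back of the eye with simple-epithelial keratins, and it normally has no such program.

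Total counts were 28760628 to 35332444 in the Krt12-high libraries and 23453015 to 30791165 in the Krt12-low libraries, within 21113549 to 35332444 over all 16. Genes with at least 1 count numbered 21706 to 23533 in the high set and 18282 to 23940 in the low set, the lowest being untreated wild-type replicate 3. Sucnr1 had 0 to 3 counts in the 8 knockout libraries and 0 to 17 in the 8 wild-type libraries, so at this depth it checks the genotype of a single library poorly. RPE genes were abundant in every library, with Rpe65, the visual cycle isomerase, at 2115 to 3825 CPM in the Krt12-high libraries and 2916 to 4259.7 CPM in the Krt12-low libraries. Hydroquinone-treated knockout replicate 1 stood apart from its group in rod photoreceptor genes. All 5 high libraries had a library identifier without a letter, whereas 2 of the low libraries had one without and 3 had one with a letter; what the letter marks is not given in the sources used here.

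Krt12 (ENSMUSG00000020912, chr11:99415666-99422259, minus strand, GRCm38) encodes keratin 12, a filament protein restricted to the corneal epithelium. It was present in all 16 libraries, from 243 to 10158 CPM, a 41.9-fold range. The high set held 10158, 7399, 3949, 3136 and 2658 CPM and the low set 980.5, 543, 436, 339 and 243 CPM. The libraries between them held 2289, 1883, 1819, 1438, 1396 and 1071 CPM. The margins were narrow against this range: 2658 CPM just inside the high set against 2289 CPM just outside it, and 980.5 CPM just inside the low set against 1071 CPM just outside it. In the highest library Krt12 alone made up 1.02% of all counts, and in the lowest 0.0243%.

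The letters upstream of Krt12 and of its partner keratin Krt5 are shown because the transcription factor gene Klf4 was among the genes that were higher with them, and factors of the KLF family bind CACCC boxes. They are the 250 bases before the annotated start in RefSeq's promoter table (GRCm38.p6, both minus strand, chr11:99422260-99422509 and chr15:101712906-101713155). Capitals mark CACCC on either strand.
Krt12: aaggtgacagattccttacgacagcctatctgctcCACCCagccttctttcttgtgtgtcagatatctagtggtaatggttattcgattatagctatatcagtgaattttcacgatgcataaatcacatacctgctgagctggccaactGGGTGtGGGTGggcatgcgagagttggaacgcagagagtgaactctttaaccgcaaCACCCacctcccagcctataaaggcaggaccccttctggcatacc
Krt5: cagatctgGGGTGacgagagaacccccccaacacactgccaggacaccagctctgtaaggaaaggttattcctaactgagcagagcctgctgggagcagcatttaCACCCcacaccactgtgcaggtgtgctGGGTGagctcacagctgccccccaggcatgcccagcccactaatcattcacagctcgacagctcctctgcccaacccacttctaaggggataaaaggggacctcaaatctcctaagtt
Krt12 had 4 matches and Krt5 had 3. At least 1 match stood in 52.0% of 32851 mouse promoters of this length, and in 64.5% of the 138 promoters found for 118 of the 167 genes defined below as higher in the high set. The longer form CCACACCC was in 3.20% of all promoters and 10.1% of these, and AACCNGTT, the core bound by grainyhead factors, in 1.79% and 5.80%. Other motifs rich in G and C were also more frequent in these promoters. The motif GGGNGGGGC, of SP factors, was at 15.5% and 26.1%, and GCCNNNGGC, of AP-2, at 13.7% and 24.6%. A loose pattern, in which a short core occurs more than once, was at 65.2% and 78.3%. It was meant for the p53 family, but its cores are not spaced as in the sites of that family. Its shares therefore say nothing about such sites. Base composition was not matched between these promoters and the rest. All promoters were counted, whether or not their gene was measured here, and some genes had several. The shares for TATAAA, searched on 1 strand, were 7.59% and 5.80%. In all, 16 motifs were searched, and the ones given so far were picked after their shares were seen. The others, all on both strands, follow with their shares in the same order. For KLF factors CCNCACCC was at 14.9% and 27.5%. For AP-1 the motif TGANTCA was at 6.75% and 7.25%, and its form TGACTCA at 4.46% and 5.80%. The motif AACCGGTT for grainyhead factors was at 0.116% and 0.725%. The strict form of the pattern meant for the p53 family, with the same wrong spacing, was at 0.664% and 0%. For ETS factors the box GGAAGT was at 19.7% and 18.1%, and the like AGGAAG at 29.5% and 26.8%. The short box TTCCTCC was at 9.52% and 7.97%, and then GTTTC at 39.7% and 34.1%. Each CCACACCC or CCNCACCC match also holds a CACCC match, and the forms given without N lie within those with it. Such matches describe letters and show no binding.

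The other 3 markers of corneal epithelium were higher in every high library than in every low library, as the plot of the 4 markers by library shows. Krt5 (chr15:101707070-101712898), the type II keratin of basal cells of stratified epithelia, was at 6576, 6059, 3662, 2053 and 2974 CPM in the Krt12-high libraries and 1965, 1406, 1162, 985 and 1563 CPM in the Krt12-low libraries. Its sets just failed to overlap, since knockout hydroquinone replicate 1 held 2053 CPM and untreated wild-type replicate 3 held 1965 CPM. Aldh3a1 (chr11:61207537-61218421), an abundant soluble enzyme of corneal cells that clears aldehydes, was at 6707, 4784, 3019, 1804 and 2126 CPM in the Krt12-high libraries and 1148, 582, 662, 547 and 521 CPM in the Krt12-low libraries. Aqp5 (chr15:99590782-99594829), a water channel of corneal and glandular epithelia, was at 1443, 1094, 622, 401 and 276 CPM in the Krt12-high libraries and 173, 124, 49.8, 63.5 and 86.1 CPM in the Krt12-low libraries. Neither gene's sets overlapped. As differences of mean log2(CPM + 1), high minus low, which is the scale of every difference below, Krt12 was higher by 3.39, Aqp5 by 2.82, Aldh3a1 by 2.30 and Krt5 by 1.50. Ranked by Krt5 in place of Krt12, 3 of the 5 high and 4 of the 5 low libraries were the same.

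**Figure D1:**
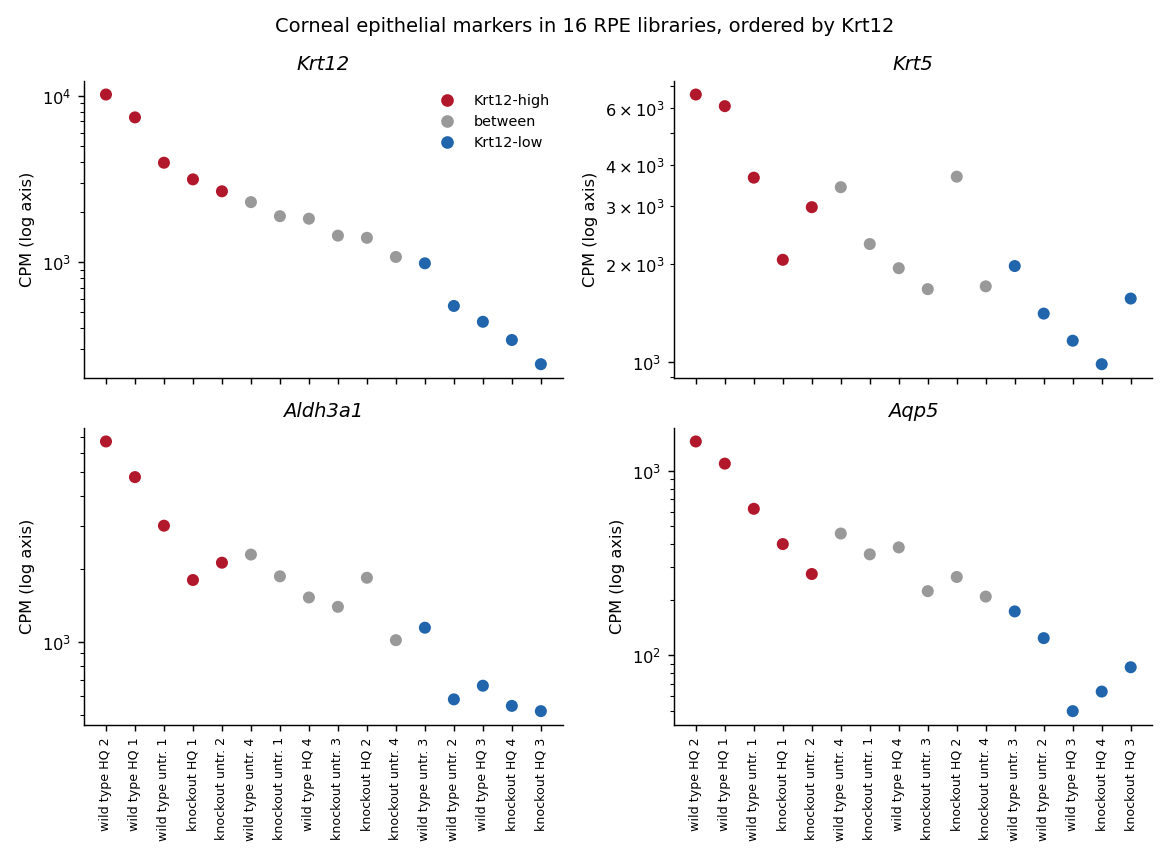
CPM on log axes of Krt12, Krt5, Aldh3a1 and Aqp5 in each of the 16 libraries, ordered by Krt12; colours mark the 5 Krt12-high, 6 between and 5 Krt12-low libraries, HQ stands for hydroquinone and untr. for untreated. All 4 markers were higher in every high library than in every low library, with Krt12 running from 10158 to 243 CPM and the narrowest gap for Krt5, 2053 against 1965 CPM.

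The 6 libraries between the sets were not used to draw a contrast, though Krt12 ranks them too. In falling order of Krt12, they held 3424, 2294, 1936, 1670.0, 3687 and 1703 CPM of Krt5, with the highest value in the library that was next to last. Aldh3a1 in the same order was at 2296, 1869, 1529, 1399, 1843 and 1020.1 CPM, and Aqp5 at 457, 353, 384, 223, 266 and 208 CPM. Krt5 thus departed most from the Krt12 order, in hydroquinone-treated knockout replicate 2. These 6 libraries come from 5 mice, so no correlation was tested.

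Among the 15380 genes whose mean over the libraries reached 1 CPM, 167 were higher in the high set by at least 1 with no overlap between the 5 and 5 libraries (1.09%), and 2 were lower by the same rule (0.013%). All of the high libraries lay above all of the low ones for 469 genes (3.05%) and below for 264 (1.72%). Without the condition on overlap, 480 genes (3.12%) differed by at least 1 and 16 (0.104%) by -1 or less, 7704 (50.1%) had a difference above 0, and the median difference of all genes was 0.00082. Because Krt12 chose the libraries, nothing is read from these shares. The count was 345 without hydroquinone-treated knockout replicate 1, and 262 without untreated wild-type replicate 3; it was 101 without the pair of libraries highest in Krt12, an alternative chosen after seeing the data. All 167 kept a positive difference in every alternative in which they were measured. For alternatives that only drop libraries from the sets, this follows from the rule of no overlap and carries no weight. The 167 genes took up 1.60% to 4.82% of the counts of the high libraries, 0.556% to 1.01% of the low ones, and 0.982% to 1.95% of those between.

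Protein-coding genes made up 161 of the 167, and for 165 of the 167 the median of the 6 libraries in between lay between the set medians. The choice of these genes and the ranking of those libraries by Krt12 favour this, so nothing is read from it. Of the 167, 24 belonged to the 7 epithelial lists examined (corneal epithelium, keratins, transcription factors, junctions, hemidesmosomes, barrier and mucins), 141 belonged to none of the 30 lists of eye and neighbouring tissues, and the other two were Lypd2 and Mal. Over the epithelial lists together, 104 of 123 genes passed the mean of 1 CPM. Of these, 24 were higher by the rule, 91 had a positive difference, and the median was 0.97 against 0.00082 for all genes. Beside this count and each list count below stand the shares of all genes, 1.09% higher by the rule and 50.1% with a positive difference. A gene could pass that mean through the high libraries alone. Since whole tissue was sequenced, more cells of a type and more RNA per cell cannot be told apart.

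The corneal epithelium list had all 15 genes measured, of which 7 were higher by the rule and 14 had a positive difference, with a median of 1.29. Its score, the mean log2(CPM + 1) of the list, was 8.20 to 9.72 in the high set and 7.10 to 7.95 in the low set. Krt12, which drew the sets, is a member of this list. Without it, 6 of 14 genes were called and 13 had positive differences, with a median of 1.27 and scores of 7.95 to 9.46 in the high set and 6.98 to 7.81 in the low set. Slurp1, a secreted Ly6-family protein that dampens inflammation of the corneal surface, had the largest difference of any gene called higher, 3.70. It was at 507, 279, 159.9, 139 and 65.8 CPM in the Krt12-high libraries and 34.7, 23.8, 12.4, 9.55 and 3.64 CPM in the Krt12-low libraries. Its lowest high library was above its highest low library, and its 3.64 CPM minimum was in the library with the least Krt12. Tkt, the transketolase that is abundant in cornea, and Elf3, an epithelial ETS factor, were also called. Cldn1, a tight junction claudin that is also made by RPE, was the only member with a negative difference, -0.53.

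Genes of the cell surface and of secreted proteins filled much of the top of the ranking. Beside Slurp1 on chromosome 15 lie Lypd2 (chr15:74732247-74734329), a GPI-anchored Ly6 protein, and Psca (chr15:74714839-74717069), a surface antigen of epithelial cells. Lypd2 was at 837, 481, 309.9, 190.2 and 131 CPM in the Krt12-high libraries and 101, 42.7, 23.7, 23.0 and 12.7 CPM in the Krt12-low libraries, without overlap. Psca was at 587, 582, 465, 225 and 139.7 CPM in the Krt12-high libraries and 114, 72.8, 52.4, 51.6 and 55.6 CPM in the Krt12-low libraries, also without overlap, and the differences were 3.28 and 2.37. Of the other measured Ly6/uPAR genes, Lypd3 was called at 1.71, while Ly6a, Ly6e and Lynx1 had differences of 0.88, 0.73 and 0.82 with overlapping sets, and Ly6c1 was at 0.05. This family and the next ones were gathered after their values were seen.

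Of the Tmprss11 group of membrane-anchored serine proteases, known from airway and other surface epithelia, 6 measured genes were listed and 3 were called. Tmprss11d was at 97.7, 47.8, 24.4, 34.1 and 19.2 CPM in the Krt12-high libraries and 7.34, 5.55, 4.76, 1.79 and 3.86 CPM in the Krt12-low libraries. Its libraries did not overlap, and the difference was 2.86. Tmprss11a followed at 2.15 and Tmprss11e at 1.58, while Tmprss11b, Tmprss11g and Tmprss11f overlapped at 1.26, 1.22 and 0.54. Of the 9 measured genes on a chosen list of Wnt ligands, Wnt3a and Wnt7b were called at 1.82 and 1.50. Wnt2b, known from the ciliary margin, had the lowest difference of this list, -0.65.

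Of 24 desmosome and junction genes, 5 were called and 21 had positive differences, with a median of 1.06. Dsg1a, a desmoglein of upper epithelial layers, was at 227, 156, 90.5, 98.7 and 109 CPM in the Krt12-high libraries and 62.6, 27.3, 37.2, 16.9 and 29.8 CPM in the Krt12-low libraries. These values did not overlap, and the difference was 1.98; Dsg1a has near-identical neighbours, so its reads may be shared with them. The desmocollin Dsc3 (1.71), the plakophilins Pkp3 (1.58) and Pkp1 (1.31) and the envoplakin Evpl (1.32) were the other called members. Gja1, the connexin 43 gene that RPE also expresses, was at -0.65, and Dsg2, the desmoglein of simple epithelia, at 0.17.

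Of 12 hemidesmosome and basement membrane genes, 4 were called. Col17a1 (chr19:47646344-47692094), the transmembrane collagen of hemidesmosomes, was at 926, 689, 327, 251 and 328 CPM in the Krt12-high libraries and 145, 74.2, 97.0, 67.6 and 86.5 CPM in the Krt12-low libraries. Its sets did not overlap, and the difference was 2.28. The anchoring fibril collagen Col7a1 (1.51) and the integrin subunit Itgb4 (1.32) were among the others called. Widely expressed members were near 0: Itga3 at 0.03, Cd151 at -0.02, Dst at -0.05 and Lama5 at -0.12.

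All 19 epithelial transcription factor genes had positive differences, 4 of them called, with a median of 1.02. Klf4 (chr4:55527143-55532466), a zinc finger factor of corneal differentiation, was at 485, 425, 225, 174 and 178 CPM in the Krt12-high libraries and 123, 114, 78.6, 72.3 and 91.8 CPM in the Krt12-low libraries. The sets did not overlap, and the difference was 1.51. Tfap2c (1.62), Elf3 (1.25) and Hopx (1.02) were the other called genes. Trp63, the master factor of stratified epithelia, had a difference of 1.38, with 33.4 to 115 CPM in the Krt12-high libraries and 17.3 to 37.1 CPM in the Krt12-low libraries, so its lowest high library was under its highest low library. Pax6, which RPE and retina cells also express, was at 0.31.

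Keratins were uneven: of 24, 20 were measured and 3 were called, with a median of 0.38. The median was 0.34 without Krt12, and 0.69 without hydroquinone-treated knockout replicate 1. The called ones were Krt12, Krt5 and Krt80, a keratin of differentiated cells (1.23). Krt6a (1.17) and Krt6b (1.22), stress keratins with nearly the same sequence whose reads may be shared, and Krt13 (0.93), of mucosal epithelia, overlapped between the sets. Krt14 and Krt15, of basal and limbal cells, were at 0.53 and 0.56. Krt8 and Krt18, the simple-epithelium pair of RPE, were at -0.29 and -0.34, and Krt24 had the lowest difference of the list, -0.75. Krt4, a conjunctival and mucosal keratin, was at -0.03, with 159 to 555 CPM in the Krt12-high libraries and 242 to 552 CPM in the Krt12-low libraries.

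Per kilobase of exon, so that genes can be set against each other, the median level in the high set was 2132 CPM per kb for Krt12, 1936 for Krt15 and 1667 for Krt5. In the low set the medians were 236, 1182 and 640 in the same order. The change of place of Krt12 in this order follows from drawing the sets on it. Krt13 had medians of 657 and 265 CPM per kb, and Krt4 of 175 and 149. The plot of keratins by library shows the highest values of Krt15 and Krt4, and a high one of Krt14, in hydroquinone-treated knockout replicate 2, a library in the middle of the Krt12 order. In that library Krt15 was at 5332 CPM, Krt4 at 983 CPM and Krt14 at 393 CPM, while Krt12 was at 1396 CPM.

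**Figure D2:**
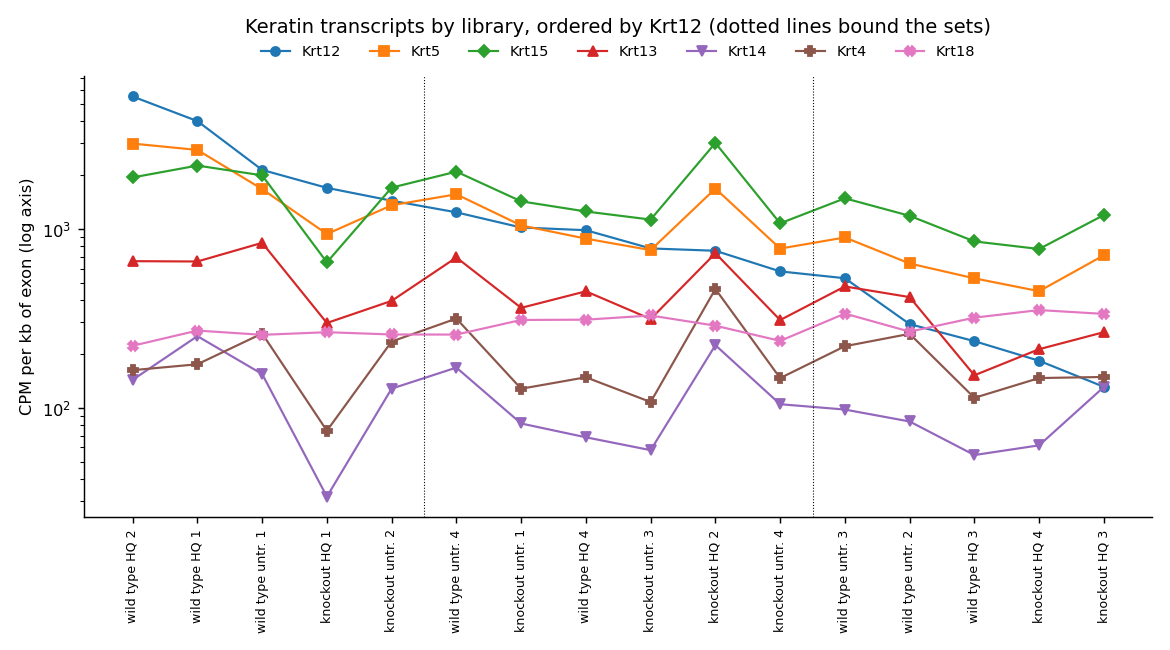
CPM per kilobase of exon (log axis) of 7 keratin genes in the 16 libraries ordered by Krt12, with dotted lines at the bounds of the sets; HQ stands for hydroquinone and untr. for untreated. Krt12 runs from a median of 2132 in the high set to 236 in the low set, Krt18 from 257 to 335, and Krt15 and Krt4 are highest in knockout HQ 2.

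Barrier genes had 14 of 25 members measured and 3 called: Anxa8, an annexin of squamous epithelia (1.58), Spink5, a protease inhibitor (1.55), and the cystatin Csta1 (1.47). Anxa8 was at 479, 416, 221, 132 and 200.1 CPM in the Krt12-high libraries and 128, 81.8, 81.8, 67.1 and 80.9 CPM in the Krt12-low libraries, with 132 CPM in the lowest high library against 128 CPM in the highest low one. The genes of cornified skin, Lor, Flg, Krtdap and the Sprr2 genes among them, were under a mean of 1 CPM. Of 10 skin epidermis genes 4 were measured and none was called, but all 4 had positive differences, with a median of 0.82. That median was 0.65 to 0.99 with 1 library left out. Asprv1, a protease known from skin, was at 816 to 2259 CPM in the Krt12-high libraries and 322 to 866 CPM in the Krt12-low libraries. Its difference was 1.42, with overlap. Of 12 mucin and secretory genes, 8 were measured and 1 was called, the sialyltransferase St6galnac1 (1.45), with a list median of 0.54 (0.24 to 0.73 with 1 library left out). Muc5ac, the goblet cell mucin, was at 8.83, 3.86, 45.7, 3.59 and 3.23 CPM in the Krt12-high libraries and 11.0, 1.31, 0.595, 0.469 and 57.5 CPM in the Krt12-low libraries; the sets overlapped widely, and untreated knockout replicate 4, in neither set, held the highest value of all, 76.3 CPM.

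Padi4, a peptidylarginine deiminase, and Fam83a, a scaffold protein of growth factor signalling, were also among the 20 largest differences. Padi4 was at 32.6, 24.3, 17.9, 8.29 and 10.9 CPM in the Krt12-high libraries and 3.87, 3.33, 2.22, 2.73 and 1.40 CPM in the Krt12-low libraries, and Fam83a at 304, 232, 119, 87.8 and 78.0 CPM in the Krt12-high libraries and 32.5, 16.8, 19.0, 11.8 and 13.4 CPM in the Krt12-low libraries. Neither gene's sets overlapped, and the differences were 2.30 and 2.94. The other members of the 20 not described above were 2610528A11Rik, Cyp3a13, Adtrp, Fam25c, Tns4, Gal3st1, Rasgrf1 and Ppp1r3c, with differences of 1.91 to 2.39. Of the genes averaging 10 CPM or more, those whose order of libraries was most like that of Krt12 were Fam83a, Tmprss11d, Slurp1, Tmprss11e, Homer2, Tgfbi, Lypd2 and Aqp5, with Spearman coefficients of 0.991 down to 0.959 over the 16 libraries. These coefficients are descriptions, and the libraries share mice and depth. Tgfbi, which encodes a matrix protein deposited by corneal epithelium, was at 423, 340.5, 193, 156 and 174 CPM in the Krt12-high libraries and 90.3, 70.7, 62.7, 58.8 and 71.2 CPM in the Krt12-low libraries.

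Of the 12 corneal enzymes, 2 were called (Aldh3a1 and Tkt) and 10 had positive differences, with a median of 0.24. Gsto1, an omega-class glutathione transferase, was at 1.05 and Aldh1a1, an aldehyde dehydrogenase shared with other eye tissues, at 0.24. Of the 18 oxidative stress genes 1 was called, Tkt again, and the median was -0.10 (-0.25 to 0.02 with 1 library left out). Gsta4, which conjugates lipid aldehydes, was at 902 to 2418 CPM in the Krt12-high libraries and 665 to 962 CPM in the Krt12-low libraries, a difference of 0.99, whereas Hmox1, Nqo1 and Slc7a11, responders to oxidants, were at -0.34, -0.28 and -0.70.

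Conjunctiva and limbus border the cornea, and their lists had few or no genes called. Of 12 conjunctival genes 10 were measured and 1 was called, Lypd2, which is also made by corneal cells, and the median was 0.41. That median was 0.18 without untreated wild-type replicate 1, 0.20 without hydroquinone-treated wild-type replicate 3, 0.24 without knockout replicate 4 of the same treatment, and 0.67 without its replicate 1. The conjunctiva score was 5.65 to 7.04 in the high set and 5.13 to 6.26 in the low set. Of 10 limbal genes 8 were measured and none was called, with a median of 0.55 (0.94 without hydroquinone-treated knockout replicate 1), and Gpha2, a hormone subunit of limbal stem cells, was at 4.18 to 29.1 CPM in the Krt12-high libraries and 4.83 to 11.6 CPM in the Krt12-low libraries. Lrig1, also on the limbal list, was at 66.2 to 153 CPM in the Krt12-high libraries and 41.8 to 53.7 CPM in the Krt12-low libraries. Its sets did not overlap, as for 3.05% of all genes, and its difference of 0.95 was just under the cut of 1. The scores of both lists overlapped, and a test of the difference between these lists and the corneal list was not made.

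In the tissues under the corneal epithelium no list gene was called. None of 10 corneal stroma genes was called, and 7 had negative differences, with a median of -0.15 (-0.28 to -0.06 with 1 library left out); the keratan sulfate proteoglycan genes Kera and Lum were at 0.41 and -0.30. Kera was at 4.61, 4.87, 2.31, 1.58 and 3.67 CPM in the Krt12-high libraries and 0.484, 0.99, 14.9, 0.64 and 3.15 CPM in the Krt12-low libraries, and its highest value was in a low library. Of 8 corneal endothelium genes none was called, with a median of -0.26. Slc4a11, a transporter of corneal endothelium that is also made elsewhere, was at 31.3, 39.0, 25.4, 6.22 and 15.0 CPM in the Krt12-high libraries and 10.5, 5.55, 4.40, 4.01 and 5.55 CPM in the Krt12-low libraries, a difference of 1.64 with overlap, while the bicarbonate cotransporter Slc4a4 was at -1.06. The sclera list had 11 of 12 differences below 0 and a median of -0.41, which was -0.26 without hydroquinone-treated knockout replicate 4. Lens crystallin and filament genes had a median of 0.80 over 11 measured genes, and Cryaa, a lens crystallin, was at 20.8, 45.5, 106, 15.5 and 5.05 CPM in the Krt12-high libraries and 29.9, 46.8, 5.75, 1.11 and 7.57 CPM in the Krt12-low libraries; the sets overlapped, and none was called.

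Genes of the ciliary body and of the RPE ran the other way. All 10 ciliary body genes had negative differences, with a median of -0.65, and the score was 4.15 to 4.72 in the high set and 4.75 to 5.53 in the low set, without overlap. Optc, which encodes the vitreous protein opticin, was at 41.3, 55.2, 43.2, 51.4 and 70.5 CPM in the Krt12-high libraries and 87.5, 63.7, 86.4, 92.2 and 147 CPM in the Krt12-low libraries. Zic1, a zinc finger factor of the ciliary margin, was at 33.3, 33.2, 50.7, 48.5 and 50.3 CPM in the Krt12-high libraries and 79.6, 56.9, 56.7, 72.7 and 96.7 CPM in the Krt12-low libraries, without overlap. For Optc the highest value of the high set, 70.5 CPM, was above the lowest of the low set, 63.7 CPM, and the differences were -0.83 and -0.73.

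All 12 RPE genes had negative differences, with a median of -0.39, and for 2 of them the sets did not overlap. Of all 15380 genes, 264 (1.72%) lay lower in this way. Rpe65 was at 2115, 2848, 2589, 2433 and 3825 CPM in the Krt12-high libraries and 4259.7, 2916, 4214, 3755 and 3227 CPM in the Krt12-low libraries, and Otx2, a homeobox factor of RPE, was at 289, 379.9, 387, 403 and 464 CPM in the Krt12-high libraries and 520.4, 468, 585, 521 and 484 CPM in the Krt12-low libraries. Their sets differed by -0.43 and -0.43, and for Otx2 the highest high library, at 464 CPM, was just under the lowest low one, at 468 CPM. Of 12 melanin genes 11 were below 0 (median -0.43), with Tyr, the tyrosinase, at -0.69. All 12 choroidal endothelium genes were below 0 (median -0.58), with Kdr, a VEGF receptor, at -0.82; no gene of these lists was called. CPM values are shares of a library, and the part of larger shares of other genes in these lower values was not tested. Without hydroquinone-treated wild-type replicate 1 the choroidal endothelium median was -0.35. The directions of these medians were the same under 2 other scalings and without each of the 10 libraries in turn.

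**Figure D3:**
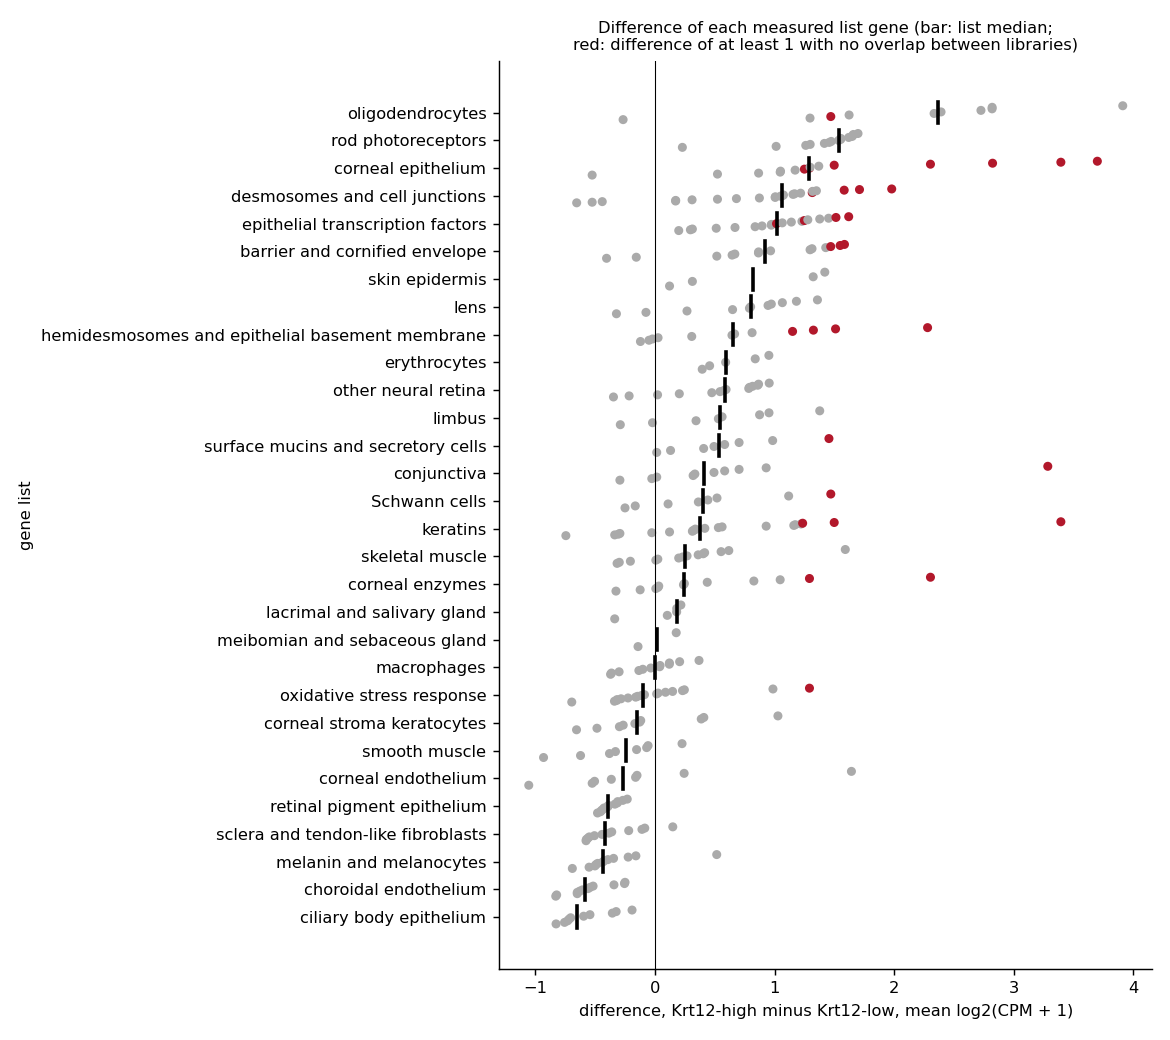
Difference between the sets in mean log2(CPM + 1), Krt12-high minus Krt12-low, for each measured gene of 30 lists (grey or red points; red marks a difference of at least 1 with no overlap) with the list median as a black bar. The corneal epithelium median is 1.29 and the RPE median -0.39, and the oligodendrocyte and rod medians of 2.36 and 1.54 rest on overlapping libraries.

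The only 2 genes called lower were Stac and Megf11. Stac, an adaptor of calcium channels, was at 17.2, 14.5, 20.2, 17.9 and 24.7 CPM in the Krt12-high libraries and 38.9, 25.7, 38.2, 40.6 and 68.2 CPM in the Krt12-low libraries, a difference of -1.08. Megf11, a receptor that spaces retinal neurons, was at 10.5, 9.04, 10.7, 13.8 and 16.8 CPM in the Krt12-high libraries and 32.9, 17.6, 22.4, 20.4 and 37.9 CPM in the Krt12-low libraries, a difference of -1.02. Both sets were separate for each gene, though the count of lower genes was as high as 44 when untreated knockout replicate 2 was left out and 0 when hydroquinone-treated wild-type replicate 1 or knockout replicate 3 was.

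Rod and myelin genes were higher in the high set on average, with overlapping libraries. All 15 rod genes had positive differences, with a median of 1.54, but none was called. The summed level of the rod list was 448 to 22787 CPM in the high set and 263 to 10547 CPM in the low set. Gnat1, the rod transducin subunit, was at 658, 529, 281, 3653 and 56.4 CPM in the Krt12-high libraries and 132, 1724, 552, 29.0 and 16.7 CPM in the Krt12-low libraries, so that 1 high library held far more than the others and the sets overlapped. Without that library, hydroquinone-treated knockout replicate 1, the rod median was 0.82, and it was 0.77 without hydroquinone-treated knockout replicate 3, 0.96 without its replicate 4, and 2.37 without untreated wild-type replicate 2.

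Of 10 oligodendrocyte genes, which mark myelin of the optic nerve, 9 had a difference of at least 1, with a median of 2.36, and 1 was called. Mobp, a myelin protein gene, was at 1.44, 244, 1543, 745 and 123 CPM in the Krt12-high libraries and 4.16, 403, 0.436, 32.8 and 0.0974 CPM in the Krt12-low libraries, and its difference of 3.91 was the largest of all genes. The library with the most Krt12 held only 1.44 CPM of it. Mog, the defining marker on the myelin surface, was at 0.283, 15.1, 94.8, 52.6 and 7.71 CPM in the Krt12-high libraries and 0.605, 24.1, 0, 0.81 and 0 CPM in the Krt12-low libraries, at 0 in 2 low libraries. The median of this list was 1.81 to 3.14 when 1 library was left out. The called gene, Mal, is a membrane protein of both myelin and surface epithelia, and it stood at 1476, 1792, 1602, 843 and 839 CPM in the Krt12-high libraries and 676, 604, 333, 327 and 409 CPM in the Krt12-low libraries, without overlap. It was at 1476 CPM in the library where Mobp was at 1.44 CPM. The summed level of this list was 1986 to 12419 CPM in the high set and 1003 to 3832 CPM in the low set. The part of rod and myelin RNA in the differences of other genes was not tested.

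**Figure D4:**
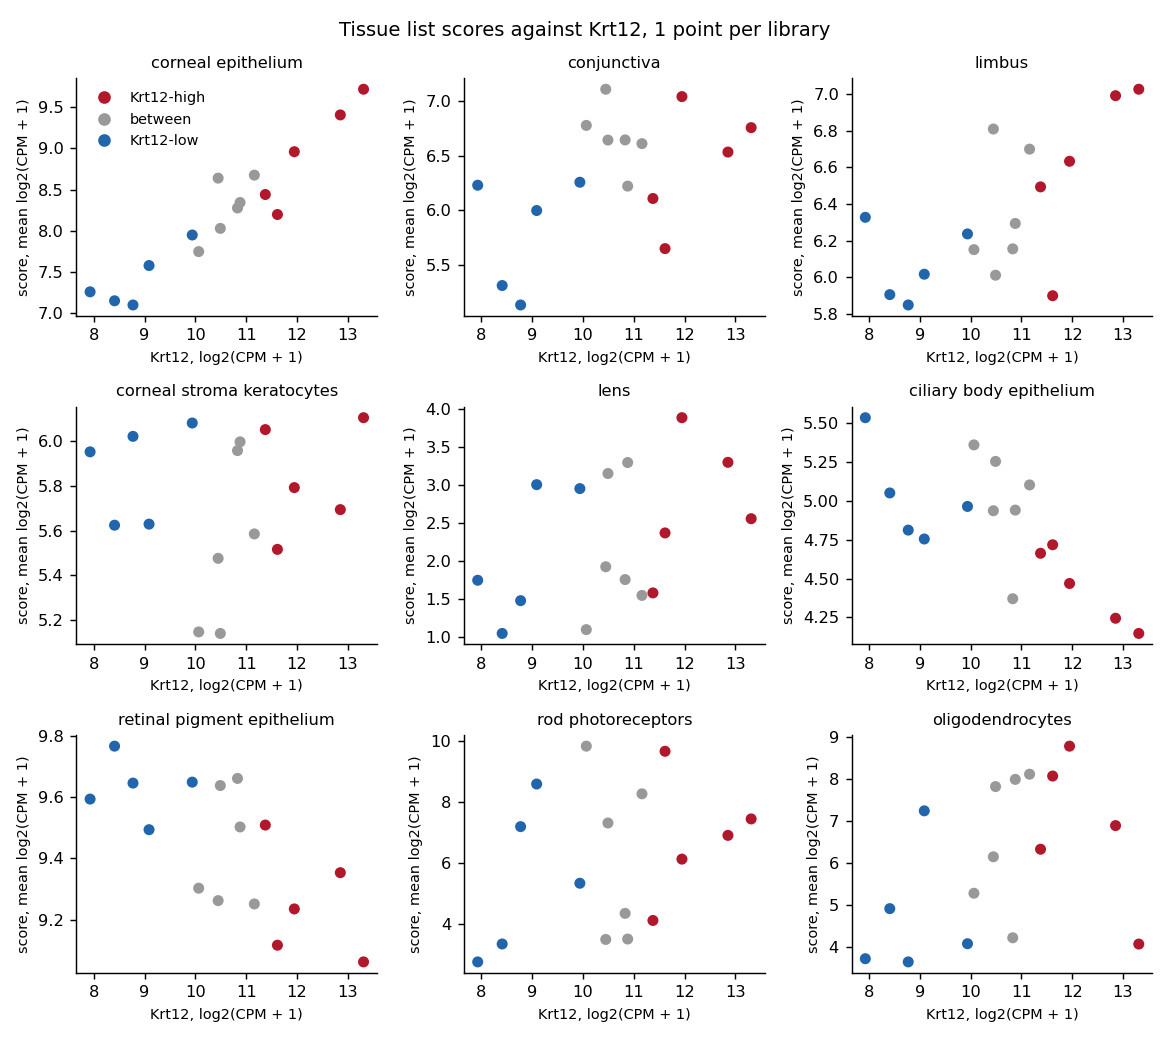
Score of 9 tissue lists (mean log2(CPM + 1) of the list's measured genes) against Krt12, log2(CPM + 1), with 1 point for each of the 16 libraries coloured by set. The corneal epithelium score, which includes Krt12 itself, is 8.20 to 9.72 in the high and 7.10 to 7.95 in the low libraries (7.95 to 9.46 and 6.98 to 7.81 without Krt12), the ciliary body score runs the other way, and rod and oligodendrocyte scores scatter.

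Skeletal muscle, macrophage, Schwann cell, erythrocyte and gland lists had medians of 0.25, 0.00, 0.40, 0.59 and 0.02 to 0.18, respectively, and the smooth muscle median was -0.24. When 1 library was left out, the gland medians took either sign (lacrimal and salivary -0.20 to 0.34, meibomian -0.26 to 0.15), as did that of macrophages (-0.10 to 0.07). The skeletal muscle median was 0.05 to 0.48, that of erythrocytes 0.29 without hydroquinone-treated wild-type replicate 1, and that of smooth muscle -0.38 without hydroquinone-treated wild-type replicate 2. None of their genes was called apart from Mal, which is also on the Schwann cell list. Myh13, the myosin of extraocular muscle, was at 81.7, 95.9, 75.1, 70.9 and 17.7 CPM in the Krt12-high libraries and 91.2, 66.8, 54.7, 1.62 and 2.63 CPM in the Krt12-low libraries. Its difference of 1.59 was the largest of the skeletal muscle list, and its sets overlapped.

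Krt12 was next set against the labels, which the choice of libraries did not use. By study group, the high and low sets each held 3 hydroquinone and 2 untreated libraries, and 3 wild-type and 2 knockout libraries. Over mice, with both eyes averaged, mean log2(CPM + 1) of Krt12 was 10.5 ± 2.03 (SD, n = 8 mice) with hydroquinone and 10.6 ± 0.474 (SD, n = 5) without. These differed by -0.12 (2-sided exact permutation test, p = 0.925, adjusted p = 0.925 over 4 comparisons). In knockout mice it was 10.1 ± 1.41 (SD, n = 7) and in wild type 11.1 ± 1.68 (SD, n = 6), a difference of -1.06 (exact permutation p = 0.245, adjusted p = 0.490). Both differences were smaller than the spread between mice. The 3 mice with both eyes were all untreated, so 3 of the 5 untreated values were means over both eyes. All 8 hydroquinone values were single eyes, so the SDs by treatment are not of the same kind.

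Right and left eyes differed by 0.37 (8 and 8 libraries, exact permutation p = 0.637, adjusted p = 0.850). Libraries whose identifier had no letter were 1.53 above those with a letter (9 and 7 libraries, exact permutation p = 0.0425, adjusted p = 0.170), which does not pass the threshold of 0.05 after adjustment. Without hydroquinone-treated wild-type replicate 3 that difference was 1.84 (exact permutation, adjusted p = 0.0497). Within identifiers without a letter the high and low sets could still be compared, 5 against 2 libraries, and 372 genes were called higher, of which 160 were among the 167. The identifiers with a letter held no high library.

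**Figure D5:**
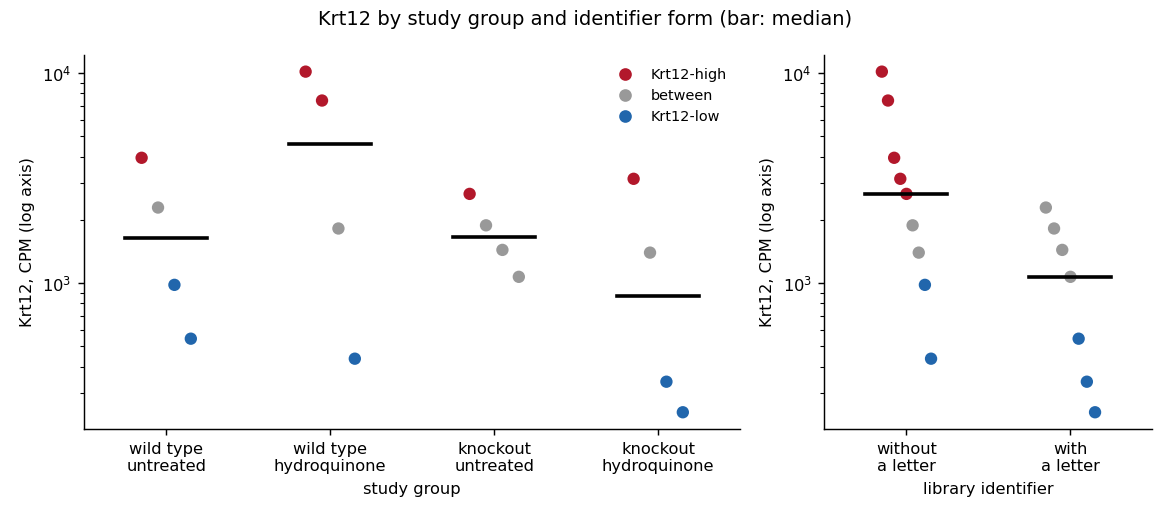
Krt12 in CPM (log axis) by study group and by form of the library identifier, 1 point per library coloured by set, with the group median as a bar. Krt12-high and Krt12-low libraries occur together in 3 of the 4 groups, and all 5 high libraries have identifiers without a letter.

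The eyes of 1 mouse could fall in opposite sets. In the mouse that gave untreated wild-type replicates 1 and 2, Krt12 was at 3949 CPM in the right eye and 543 CPM in the left, a 7.27-fold difference, and Slurp1 differed 6.70-fold, Aldh3a1 5.19-fold, Aqp5 5.03-fold and Krt5 2.60-fold. In the same eyes Rpe65 was at 2589 and 2916 CPM. The mouse of replicates 3 and 4 had 980.5 CPM of Krt12 in its right and 2289 CPM in its left eye, 2.33-fold apart. In the untreated knockout mouse with both eyes the values were 1438 and 1883 CPM, 1.31-fold apart. Each of these 3 mice had 1 identifier with and 1 without a letter. Within the mice, the library without a letter was higher in 2 of 3, by a mean of 0.68 on the log2 scale (2-sided exact permutation p = 0.75), and the right eye was higher in 1 of 3, by a mean of 0.42 (exact permutation p = 1). With 3 mice this test, chosen after seeing the data, cannot go below 0.25.

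In edgeR's quasi-likelihood test over all 16 libraries, none of the 104 measured epithelial genes passed an adjusted p of 0.05 for hydroquinone against untreated, averaged over genotype, where 13 of 15380 genes did (0.0845%), 11 of them higher (0.0715%) and 2 lower (0.013%). Without adjustment, 2 of the 104 and 879 of all genes (5.72%) were under 0.05, the 2 being Gjb6, a connexin, at -0.65 and Krt8 at 0.26 on the log2 scale. The estimate for Krt12 itself was 0.47 on the log2 scale, with an SE of 0.63 and an adjusted p of 0.9405 from edgeR. That sign is opposite to the mean of logs over mice given above. With the Krt12 level as a covariate 16 genes passed, including all 13.

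For knockout against wild type, averaged over treatment, 0 genes passed with edgeR and 0 with DESeq2, and 456 (2.96%) and 579 genes were under an unadjusted p of 0.05. Of the 104 epithelial genes, 87 had log2 fold changes below 0, with a median of -0.40 against 0.02 for all genes, and none was under an unadjusted p of 0.05 with edgeR. Genes of these lists can vary together, so 87 is not a number of independent results. With the Krt12 level as a covariate, 54 of the 104 were below 0, with a median of -0.0013, and 0 genes passed. Without that covariate, Aqp5 was at -1.13 (SE 0.56) and Krt12 at -1.06 (SE 0.64), both with an edgeR adjusted p of 0.9871. Without hydroquinone-treated knockout replicate 2, 44 of the 104 and 815 of all 15380 genes were under an unadjusted edgeR p of 0.05. Without hydroquinone-treated wild-type replicate 3, 35 of the 104 and 1510 of all genes were. In both cases 0 genes passed the adjusted threshold. No gene passed for the interaction of treatment and genotype, where 296 (1.92%) were under an unadjusted edgeR p of 0.05.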

How the data were processed

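RNA from RPE of 16 eyes was sequenced on an Illumina instrument, per the labels' protocols. The deposited table holds whole-number counts for 51912 genes, although its name announces FPKM: 100% of its values were whole and library totals differed, so it was treated as counts. The submitters' processing notes name STAR, Cufflinks, DESeq2 and mm10 without roles; strand and duplicate handling are not given in the sources used here. Symbols and coordinates came from GENCODE vM21, which matched 51719 identifiers. CPM used column totals, and 15380 genes with a mean CPM of at least 1 were analysed, holding 99.8% of counts. The Krt12-high and Krt12-low sets were compared by the difference in mean log2(CPM + 1) and by overlap. A gene was called at a difference of 1 or more in size with no overlap.

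The label contrasts took the deposited counts into edgeR 4.0.16 under R 4.3.3 and used quasi-likelihood tests, TMM scaling and Benjamini-Hochberg adjustment over all 15380 genes at 0.05. limma 3.58.1 and DESeq2 1.42.0 were alternatives. Krt12 by label was tested with exact permutations in SciPy 1.17.1. The edgeR fit was tested on simulated counts for hydroquinone averaged over genotype, with 200 of 15380 genes changed, and recovered 66% of 2-fold and 97% of 4-fold changes with 7 false calls among 170. The simulated libraries were independent, without shared mice or genes that vary together, and the spread of a gene followed its level. Recovery for genes as variable between libraries as Krt12 was not tested. Replicates were numbered in accession order, which pairs no samples. No library was a copy of another: the lowest chi-square per degree of freedom over 24 within-group pairs was 21.9.

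The members and the gene lists were chosen with earlier results of these data known. Named genes were the 4 markers, the 20 largest positive and up to 10 largest negative differences among called genes, at most 4 genes per list with the largest absolute difference, the 8 genes most like Krt12, and epithelial genes under an unadjusted p of 0.05 in a label contrast; others, including the gene families and the further list members given with their values, were chosen after their values were seen. Alternatives tried were other pseudocounts, scalings, filters, set sizes, the ranking gene, covariates and leaving out each library. Subsets by treatment or genotype, the top pair left out, a rod score covariate and comparisons within mice were chosen after seeing the data. Some values that this rule gave are not reported here.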

Additional observations from a re-analysis of the deposited data

Results flagged for a closer look

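In groups of 4 libraries, 2 scores had 1 library far from the other 3, where its gap to the nearest took up more of the group's range than Dixon's 95% critical value of 0.829 allows. Over the 48 sets of values examined (12 measures in 4 groups), chance alone would give about 2.4 such cases. The conjunctiva score of hydroquinone-treated wild-type replicate 3, a Krt12-low library, was 5.13, and the other 3 libraries of its group were at 6.54, 6.65 and 6.76. The rod photoreceptor score of hydroquinone-treated knockout replicate 1, a Krt12-high library, was 9.66, and the other 3 were at 2.77, 3.36 and 3.50. The corneal epithelium score of that library, 8.20, was the lowest of the high set.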

How the results depend on the processing

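Of 573 differences recomputed for the 23 genes that are markers or among the largest differences, 536 moved by less than the spread between libraries, 37 moved by more and 0 changed sign. The sets did not overlap for any of these genes, so leaving out libraries of the sets could not change their sign. The count of genes higher, 167, was 342 with the 4 highest against the 4 lowest libraries, 18 with 8 against 8, 424 when ranked by Krt5 (129 shared, 30.4% of that list and 77.2% of the 167) and 372 within identifiers without a letter; leaving out 1 library gave 142 to 345. Among alternatives chosen after seeing the data, it was 558 in hydroquinone, 139 in untreated, 558 in knockout and 620 in wild-type libraries only, with 165, 70, 65 and 166 of the 167 among them, and 101 without the 2 libraries highest in Krt12. The count of genes lower, 2, was 11 with a pseudocount of 0.1, 4 with TMM scaling, 49 with 4 against 4, 0 with 8 against 8, 6 with medians, 0 when ranked by Krt5 and 47 within identifiers without a letter; it was 119 in hydroquinone, 85 in untreated, 42 in knockout and 83 in wild-type libraries only, and 0 to 44 with 1 library left out. Smaller sets overlap more rarely by construction. For hydroquinone, 37 genes passed with DESeq2 in place of 13 with edgeR, and 7 to 15 with 1 library left out; for knockout, 0 passed in each of these. Krt12 by treatment, -0.12, changed sign without untreated wild-type replicate 1 (0.17) or 4 (0.00388), hydroquinone-treated wild-type replicate 3 (0.13), untreated knockout replicate 2 (0.0661), or hydroquinone-treated knockout replicate 3 (0.25) or 4 (0.18), within -0.52 to 0.25 over all libraries left out. The difference by identifier form was 1.23 to 1.84, past the threshold without hydroquinone-treated wild-type replicate 3 (1.84); by genotype it was -1.54 to -0.63 and by eye 0.074 to 0.79. The cause was not tested. No paired analysis was possible between genotypes or treatments because no mouse is in more than 1 group; within the 3 mice with both eyes, identifier form and eye differed by 0.68 and 0.42. In limma with mouse as a random effect, 12 genes passed for hydroquinone and 0 for knockout. Averaging eyes within a set and a comparison within identifiers with a letter were not run, since each set has 5 mice and the latter hold no high library; nor were alternatives to the correlation over the 6 libraries in between, which was not made. Depth limits the rarest genes, such as Sucnr1.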
